A study of Mus musculus with 6 samples.

Results

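The genes of pyrimidine ribonucleotide synthesis and salvage were described in RNA from CD3+ T cells of the spleen of C57BL/6 mice that had been given a graft. The 8 genes were taken by name from 55416 genes in the count files: Cad, Dhodh, Umps, Ctps, Ctps2, Uck1, Uck2 and Cmpk1. All 8 were detected in every library and all 8 passed the filter on low counts, which left 14926 genes for testing. Isograft recipients, whose graft was genetically identical to them, gave 3 libraries, and allograft recipients, whose graft was genetically foreign, gave the other 3. All recipients are labelled wild type, and both groups carried a graft, so an ungrafted level is not part of the comparison. After purification the cells were held in culture medium with serum. The sources used here do not give the donor strain, the grafted organ, the interval after grafting, the hours in culture or the age of the mice. They also do not tie each library to its own mouse, so the p-values rest on a spread between libraries that may be technical only.

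Pyrimidine nucleotides reach a cell by 2 routes. In the de novo route, CAD joins glutamine, bicarbonate and aspartate into dihydroorotate, DHODH in the inner mitochondrial membrane oxidises it to orotate while passing electrons to ubiquinone, and UMPS turns orotate into UMP. In the salvage route, uridine-cytidine kinases phosphorylate nucleosides taken up from outside. CMPK1 carries UMP and CMP to the diphosphates, and CTP synthases aminate UTP to CTP. Resting lymphocytes rely largely on salvage, whereas dividing ones draw on the de novo route, and inhibitors of DHODH are used as immunosuppressants. Inherited loss of CTPS1, the human counterpart of Ctps, impairs lymphocyte expansion.

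Library totals ran from 30066137 to 37821738 counts. Levels are given as CPM, counts scaled to library totals that were corrected with the trimmed mean of M values (TMM). Each log2 fold change is the allograft level over the isograft level and carries its standard error (SE). By edgeR's quasi-likelihood test, 57.8% of all tested genes passed an adjusted p of 0.05. All 16 T cell markers listed for the check of the labelled cell type were tested, 4 rising and 9 falling, and they summed to 2235 to 2324 CPM in isograft and 1683 to 1855 CPM in allograft libraries. Of 12 B cell markers, 2 rose and 7 fell, and they summed to 2671 to 2926 CPM in isograft and 2263 to 2408 CPM in allograft libraries, so the fraction held B cell transcripts in both groups. Summed markers of other cells were lower. Those of dendritic cells were at 35.7 to 37.6 CPM in isograft and 79.0 to 86.8 CPM in allograft libraries (2 of 6 tested rose and 0 fell), and those of NK cells at 51.0 to 54.6 and 69.0 to 74.0 CPM (1 of 6 rose and 1 fell). Macrophage and monocyte markers went the other way, at 98.3 to 104.01 CPM in isograft and 79.7 to 90.6 CPM in allograft libraries (1 of 8 rose and 3 fell). The groups overlapped for plasma cell markers (106 to 116 and 99.7 to 111 CPM), neutrophil markers (10.2 to 12.04 and 7.11 to 10.3 CPM) and erythroid markers (0.888 to 1.59 and 1.07 to 1.44 CPM). Which of these cells the pyrimidine transcripts came from was not tested, and in such bulk libraries fewer cells of a type and less RNA per cell cannot be told apart.

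Of the 8 genes, 5 rose in allograft libraries (Cad, Dhodh, Umps, Ctps and Uck2), 1 fell (Ctps2) and 2 did not pass the test (Uck1 and Cmpk1). Over all tested genes 28.7% rose and 29.1% fell. The median log2 fold change of the 8 genes was 0.77, against -0.01 for all tested genes. For the 5 genes that rose every allograft library lay above every isograft library, as it did for 31.3% of all genes, and for Ctps2 every allograft library lay below, as for 32.1%. The scaling sets part of this count. With total counts in place of TMM, which moved the median of all genes by -0.22 on the log2 scale, 4 of the 8 rose and 3 fell, against 19.9% and 40.8% of all genes.

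**Figure D1:**
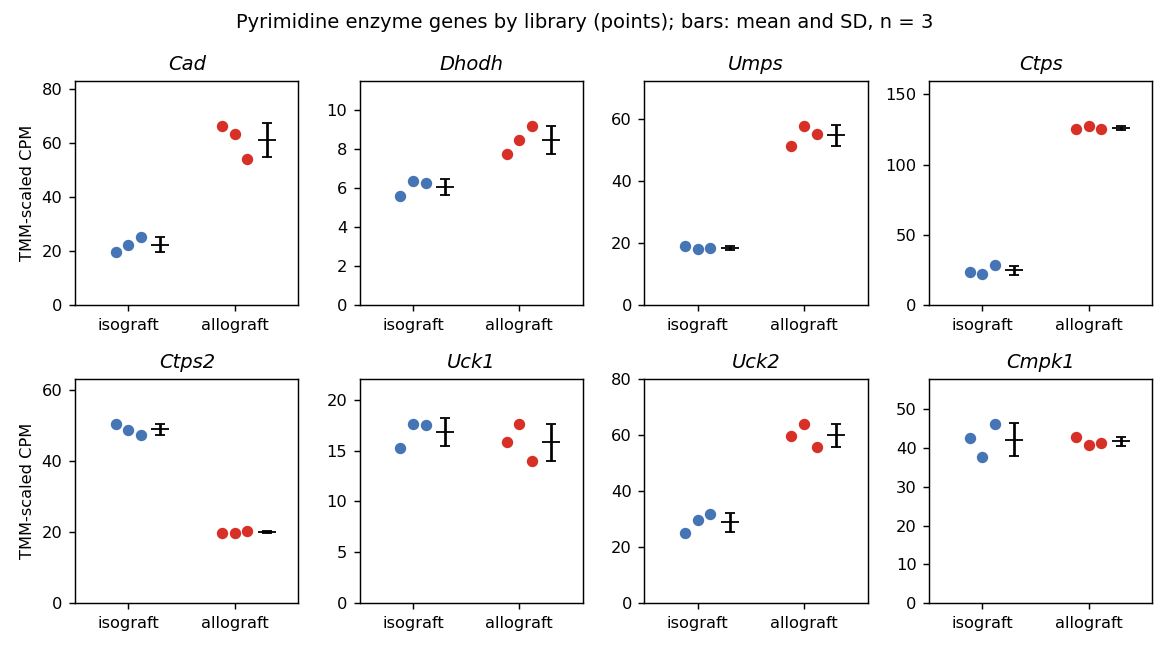
TMM-scaled CPM (vertical axes, each from 0) of the 8 genes in the 3 isograft and 3 allograft libraries, 1 point per library, with the mean and SD beside them. Groups are apart for Cad, Dhodh, Umps, Ctps, Ctps2 and Uck2 and overlap for Uck1 and Cmpk1.

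The first enzyme of the de novo route, the multifunctional protein CAD, is encoded by Cad on chromosome 5 (31212124 to 31235823, plus strand, GRCm39). Its level was 19.7, 22.5 and 25.1 CPM in isograft replicates 1, 2 and 3, and 66.4, 63.3 and 54.3 CPM in allograft replicates 1, 2 and 3. The lowest allograft library was well above the highest isograft library. Means were 22.4 ± 2.68 and 61.3 ± 6.28 CPM (SD, n = 3), a 2.73-fold rise (log2 fold change 1.45 ± 0.10 SE, edgeR adjusted p = 3.0e-10).

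Umps, which encodes the enzyme that closes the route to UMP, lies on chromosome 16 (33775152 to 33787408, minus strand). It stood at 19.2, 17.95 and 18.5 CPM in the isograft and 51.1, 57.7 and 55.0 CPM in the allograft libraries. The isograft values lay within a narrow band and no library of the groups overlapped. The rise was 2.95-fold (log2 fold change 1.56 ± 0.09 SE, edgeR adjusted p = 8.9e-12). Without strand information, reads over the 213 exon bases that Umps shares with the opposite-strand gene Gm15829, 6.11% of its exon length, cannot be assigned, and Gm15829 itself held 2 to 15 counts.

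Dhodh, whose product works between those of Cad and Umps, lies on chromosome 8 (110317975 to 110335305, minus strand) and had the lowest counts of the 8 genes, 184 to 258 per library. Its levels were 5.56, 6.34 and 6.24 CPM in the isograft and 7.72, 8.45 and 9.17 CPM in the allograft libraries. The groups did not overlap, but the gap between them was small. The log2 fold change was 0.48 ± 0.14 SE (1.40-fold, edgeR adjusted p = 0.0067), and with total counts Dhodh no longer passed (0.26, adjusted p = 0.13).

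The 3 de novo genes thus rose by unlike amounts. Per kilobase of exon, the ratio of Umps to Cad was 1.73 to 2.28 in isograft and 1.81 to 2.38 in allograft libraries, ranges that overlap. The ratio of Cad to Dhodh was 2.74 to 3.11 in isograft and 4.58 to 6.65 in allograft libraries, and that of Umps to Dhodh 5.14 to 6.26 and 10.9 to 12.4. Cad and Umps therefore kept their proportion within the spread between libraries, while both moved away from Dhodh. Summed per kilobase, the 3 genes went from 9.02 ± 0.296 to 24.5 ± 0.978 CPM per kb.

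**Figure D2:**
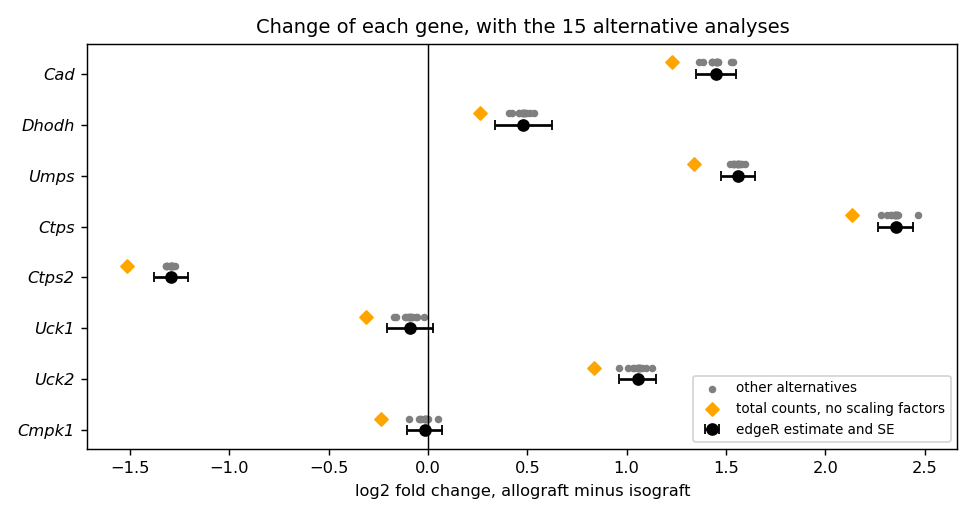
Log2 fold change (allograft minus isograft, horizontal axis) of each gene: the edgeR estimate with its SE (black), the same gene under 14 alternatives (grey) and with total counts in place of TMM scaling (orange). Estimates for Cad, Dhodh, Umps, Ctps and Uck2 stay above 0 and those for Ctps2 and Uck1 below 0 throughout, while that for Cmpk1 changes sign. Total counts shift all 8 genes down, and Dhodh does not pass with them.

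The pair of CTP synthase genes moved in opposite directions. Ctps (chromosome 4, 120397065 to 120427473, minus strand), the form known to be needed for lymphocyte proliferation, was at 23.3, 22.3 and 28.5 CPM in isograft replicates 1, 2 and 3, and at 125.3, 127.6 and 125.2 CPM in the allograft libraries. The allograft values were nearly equal to one another, and isograft replicate 3 stood above the other isograft libraries. The rise was 5.11-fold, with a log2 fold change of 2.35 ± 0.09 SE (edgeR adjusted p = 5.5e-14), and only 200 of the 14926 tested genes had a higher one.

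Ctps2, its paralog on the X chromosome (161684234 to 161815504, plus strand), was at 50.6, 48.7 and 47.5 CPM in the isograft and 19.8, 19.8 and 20.3 CPM in the allograft libraries. Replicates of each group lay close together and the groups were far apart. Its level was 2.45-fold lower in allograft libraries (log2 fold change -1.29 ± 0.08 SE, edgeR adjusted p = 9.4e-11).

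The share of Ctps in the summed CTP synthase signal per kilobase was 39.6%, 39.4% and 46.1% in isograft replicates 1, 2 and 3 and 90.0%, 90.2% and 89.8% in the allograft libraries. Ctps2 was the larger part in every isograft library and the smaller part in every allograft library. The summed level of both went from 17.8 ± 0.816 to 42.2 ± 0.382 CPM per kb (SD, n = 3). The log2 ratio of Ctps to Ctps2 within a library, which does not depend on the scaling, was -0.48 ± 0.22 in isograft and 3.17 ± 0.03 in allograft libraries, a difference of 3.65. An exact two-sided permutation test over the 6 libraries gave p = 0.10 (0.10 after adjustment over the 2 paralog pairs tested), the smallest p that 3 libraries against 3 allow. The longest stretch of bases shared by any transcript of the 2 genes was 20 bases in the GENCODE transcripts. Ctps2 shares no exon base with another gene of the files, and neither does Ctps.

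The promoter sequences of this pair, which went opposite ways, and of Cad and Umps, which rose together, are shown for comparison. They come from RefSeq (build GRCm38.p6, another build than that of the counts, matched by symbol) and run 5′ to 3′ on the gene's strand from 250 bases before to 50 bases after an annotated start. The table held windows for 7 of the 8 genes. The first listed of 2 windows is shown for Ctps (chr4:120570227-120570526, minus strand) and of 3 windows for Ctps2 (chrX:162901921-162902220, plus strand), with the 1 window of Cad (chr5:31054530-31054829, plus strand) and of Umps (chr16:33966989-33967288, minus strand). Capitals mark matches on either strand to GGGCGG (the GC box bound by Sp1-type factors), GCGCATGC (part of the NRF1 consensus), TGACGTCA (the cyclic AMP response element) and CACGTG (the E-box bound by MYC and other factors), motifs chosen after the sequences had been seen.
Ctps: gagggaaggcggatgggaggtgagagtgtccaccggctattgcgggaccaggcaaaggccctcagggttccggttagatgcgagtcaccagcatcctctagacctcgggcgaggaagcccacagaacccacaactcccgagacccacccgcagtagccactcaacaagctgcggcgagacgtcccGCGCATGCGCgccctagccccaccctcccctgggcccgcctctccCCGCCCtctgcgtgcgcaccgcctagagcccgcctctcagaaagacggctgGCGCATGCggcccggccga
Ctps2: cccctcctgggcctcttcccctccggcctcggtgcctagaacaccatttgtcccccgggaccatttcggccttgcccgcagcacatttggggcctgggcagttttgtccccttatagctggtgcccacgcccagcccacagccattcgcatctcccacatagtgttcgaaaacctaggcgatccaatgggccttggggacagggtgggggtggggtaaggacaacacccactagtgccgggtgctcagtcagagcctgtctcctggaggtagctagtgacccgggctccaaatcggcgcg
Cad: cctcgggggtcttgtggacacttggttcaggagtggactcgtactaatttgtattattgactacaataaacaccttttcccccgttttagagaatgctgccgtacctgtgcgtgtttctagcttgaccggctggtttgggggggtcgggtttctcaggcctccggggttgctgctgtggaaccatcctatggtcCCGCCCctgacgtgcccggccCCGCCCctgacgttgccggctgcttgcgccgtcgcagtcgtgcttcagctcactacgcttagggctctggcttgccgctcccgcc
Umps: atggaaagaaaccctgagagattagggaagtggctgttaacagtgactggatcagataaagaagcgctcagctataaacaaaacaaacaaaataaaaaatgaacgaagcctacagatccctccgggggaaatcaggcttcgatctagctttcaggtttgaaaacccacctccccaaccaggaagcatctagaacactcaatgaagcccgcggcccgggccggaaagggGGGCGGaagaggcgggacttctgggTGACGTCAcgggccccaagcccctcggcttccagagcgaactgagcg
The Ctps window shown held 3 matches to GCGCATGC over both strands, a motif in 2.71% of all 32851 windows. Of these, 2 overlap on opposite strands within 1 marked stretch. It held GGGCGG once, a motif in 35.7% of windows. The second window of Ctps (chr4:120569410-120569709, minus strand) held none of the 4 motifs, and neither did any of the 3 windows of Ctps2, so the pair differs in these motifs only by the first Ctps window. Cad held GGGCGG at 2 positions, and Umps held GGGCGG once and TGACGTCA once, the last a motif in 1.79% of windows. Of the genes whose windows are not shown, Cmpk1, which did not pass the test, held GGGCGG at 2 positions. Uck2, which rose, held it at 4, and Uck1, which did not pass, at 0. CACGTG, found in 7.15% of all windows, was in none of the 11 windows of the 7 genes. Bases outside the windows, including all those more than 50 bases past a start, were not searched, so a site there would be missed. GCGCATGC was also in both windows of Uck1, which did not pass the test. These windows overlap and hold the same site. A match is only a match of letters in the window shown.

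Of the uridine-cytidine kinases, which start the salvage of uridine and cytidine, Uck2 rose and Uck1 did not pass. Uck2 (chromosome 1, 167050452 to 167112889, minus strand) was at 25.1, 29.7 and 31.7 CPM in the isograft and 59.9, 64.2 and 55.9 CPM in the allograft libraries. The lowest allograft library lay above the highest isograft library. The rise was 2.08-fold (log2 fold change 1.06 ± 0.09 SE, edgeR adjusted p = 7.9e-09).

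Uck1 (chromosome 2, 32145014 to 32150171, minus strand) was at 15.2, 17.7 and 17.5 CPM in the isograft and 15.8, 17.6 and 14.0 CPM in the allograft libraries. The groups overlapped. The log2 fold change of -0.09 had an interval of -0.31 to 0.13 (about 2 SE either side, edgeR adjusted p = 0.52), and with total counts it was -0.31 and passed (adjusted p = 0.022).

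The share of Uck2 in the summed signal of both kinases per kilobase was 45.4%, 45.8% and 47.7% in the isograft and 65.6%, 64.8% and 66.8% in the allograft libraries. Uck1 was the larger part in every isograft library and Uck2 in every allograft library. Their log2 ratio went from -0.21 ± 0.07 to 0.94 ± 0.07 (SD, n = 3), a difference of 1.15 with an exact two-sided permutation p = 0.10, again the smallest possible. The longest stretch that transcripts of these 2 genes shared was 34 bases. Uck1 shares 4 exon bases with Pomt1 and Uck2 shares 150 with Gm2453, which was at 0 counts in every library.

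**Figure D3:**
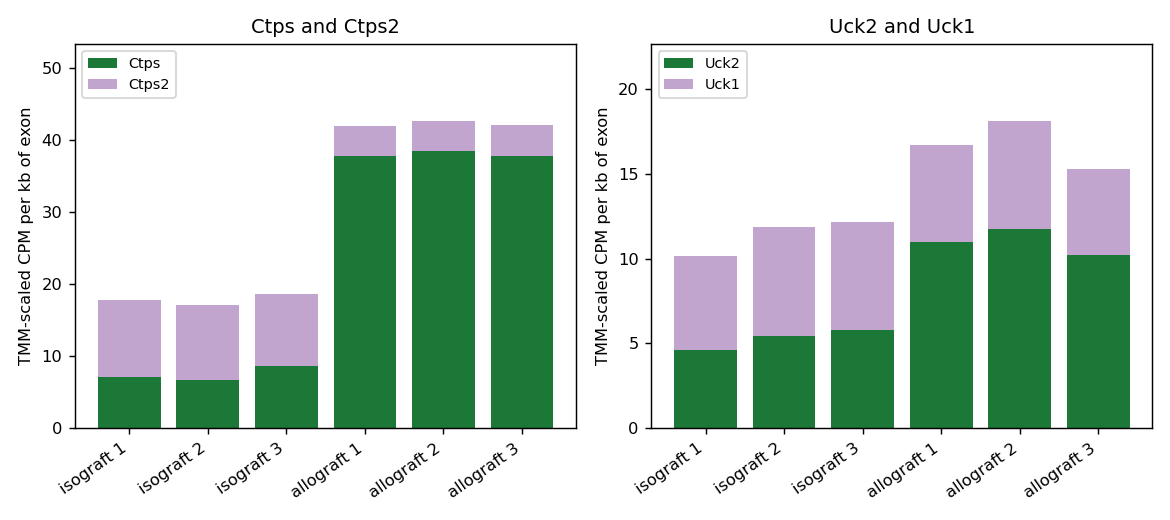
Stacked bars of TMM-scaled CPM per kb of exon in each library for Ctps with Ctps2 (left) and Uck2 with Uck1 (right). Ctps makes about 90% of its pair in the allograft libraries and 39.4% to 46.1% in the isograft libraries, and Uck2 makes 64.8% to 66.8% and 45.4% to 47.7% of its pair.

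Cmpk1, the UMP-CMP kinase gene on chromosome 4 (114816533 to 114844438, minus strand), serves both routes. It was at 42.6, 37.7 and 46.3 CPM in the isograft and 43.0, 40.7 and 41.4 CPM in the allograft libraries. All allograft values lay inside the isograft range. The log2 fold change was -0.02 with an interval of -0.19 to 0.15 (edgeR adjusted p = 0.89), and with total counts it was -0.24 and passed (adjusted p = 0.024).

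Compared per kilobase of exon, the order of the genes differed between groups. In isograft libraries it ran from Cmpk1 (12.3 ± 1.27 CPM per kb) through Ctps2 (10.4 ± 0.330), Ctps (7.45 ± 1.013), Uck1 (6.11 ± 0.494), Umps (5.32 ± 0.175), Uck2 (5.28 ± 0.618) and Cad (2.74 ± 0.327) to Dhodh (0.956 ± 0.0666). Umps and Uck2 overlapped, and each other neighbour was separated in all 3 libraries. In allograft libraries Ctps led at 38.005 ± 0.402 CPM per kb, followed by Umps (15.7 ± 0.952), Cmpk1 (12.2 ± 0.340), Uck2 (10.98 ± 0.756), Cad (7.496 ± 0.767), Uck1 (5.74 ± 0.657), Ctps2 (4.23 ± 0.0573) and Dhodh (1.34 ± 0.115), with no overlap between neighbours. Ctps2 went from the second place to the seventh and Ctps from the third to the first, while Dhodh was last in both groups. The length used is the union of all exons of a gene, 6326 bases for Dhodh and 3316 for Ctps, so a gene with long exons that few transcripts use is placed too low.

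**Figure D4:**
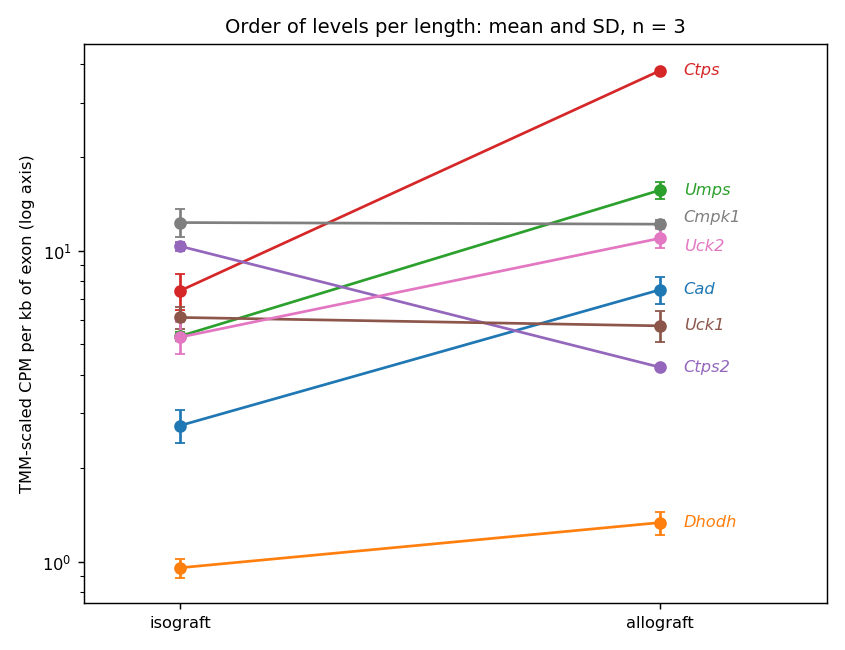
Mean level of each gene in TMM-scaled CPM per kb of exon (log axis) in isograft and allograft libraries, with the SD over 3 libraries. Lines for Ctps, Umps, Uck2 and Cad rise, that of Ctps2 crosses them downward, and those of Cmpk1 and Uck1 stay nearly level.

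The genes whose centred log2 levels over the 6 libraries lay closest to those of Cad were Slc3a2, the heavy chain of amino acid exchangers, Eif3j1, a translation initiation factor subunit with a close copy in the genome that makes its level uncertain, and Klf4, a Kruppel-like transcription factor. Their root mean square distances to Cad were 0.041, 0.042 and 0.045 on the log2 scale among 9416 genes with at least 5 CPM on average. Slc3a2 was at 195.1, 231.2 and 258.4 CPM in the isograft and 719.2, 660 and 550.9 CPM in the allograft libraries. Its order within each group was that of Cad, which picking genes by closeness to Cad favours. Among the other pyrimidine genes Umps (0.17) and Uck2 (0.21) were nearest, with 253 and 394 other genes closer to Cad than they were. The pattern is dominated by the difference between groups, which many genes share.

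Among other salvage and transport genes, 4 of 7 tested rose and 2 fell, and the median log2 fold change was 0.76. For this list and those below, the shares over all tested genes were 28.7% that rose and 29.1% that fell. Slc29a1, the equilibrative nucleoside transporter ENT1, went from 7.29 ± 1.14 to 55.4 ± 1.83 CPM (2.92 ± 0.11 SE, edgeR adjusted p = 4.5e-14), and its relatives Slc29a2 (1.66 ± 0.21) and Slc29a3 (0.76 ± 0.12) rose as well. The concentrative, sodium-coupled transporter gene Slc28a2 fell from 112.3 ± 3.38 to 54.0 ± 5.76 CPM (-1.06 ± 0.08). Upp1, a uridine phosphorylase that breaks uridine down to uracil, rose from 1.62 ± 0.255 to 6.80 ± 1.17 CPM (2.07 ± 0.21). Uckl1, a kinase-like relative of the Uck genes, fell (-0.39 ± 0.10), and Uprt differed by -0.09 ± 0.18, which did not pass. Opposite-strand genes cover 6.86% of the exon bases of Slc29a1 and 9.92% of those of Uckl1. Without strand information, reads over those bases cannot be assigned, and the counting tool's defaults leave them out. Of 4 untested genes, Cda and Slc28a1 were at 0 in every library.

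In the list of nucleoside diphosphate kinases, which make triphosphates, and Cmpk2, 2 of 6 tested rose and 1 fell, with a median of 0.15. Nme1 rose from 2.34 ± 0.263 to 11.5 ± 0.647 CPM and Nme2 from 0.232 ± 0.0585 to 1.11 ± 0.0584 CPM. Both are close copies and share 12.5% and 48.9% of their exon bases with the readthrough gene Gm20390, so their levels are uncertain. Nme7, 9.79% of whose exon bases lie opposite Atp1b1, fell (-0.88 ± 0.14), and Cmpk2, the mitochondrial relative of Cmpk1, was at 23.7 ± 2.03 and 22.4 ± 1.79 CPM, which did not pass except with total counts, where it fell.

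In the list of genes that set the supply of deoxypyrimidine nucleotides for DNA, 2 of 12 rose and 5 fell, and the median was -0.09. Not all of them make these nucleotides. Samhd1, whose product breaks deoxynucleotides down, is counted among those that fell (2078 ± 66.9 to 1421 ± 87.8 CPM, -0.55 ± 0.07). The thymidine kinase gene Tk1 rose from 21.0 ± 0.838 to 68.4 ± 4.86 CPM (1.70 ± 0.08), and Dctd, a deoxycytidylate deaminase, from 1.65 ± 0.148 to 9.27 ± 1.81 CPM (2.49 ± 0.19). Dck, the deoxycytidine kinase, fell from 18.9 ± 1.30 to 7.71 ± 0.732 CPM (-1.29 ± 0.12), and the mitochondrial thymidine kinase gene Tk2 fell by 0.87 on the log2 scale. The ribonucleotide reductase subunit gene Rrm1 was at 111.5 ± 3.82 and 110.9 ± 9.04 CPM and did not pass, its partner Rrm2 fell (-0.36 ± 0.13), and Tyms, thymidylate synthase, differed by 0.42 ± 0.19 without passing (edgeR adjusted p = 0.064). Beside these, 3 of 15 cell cycle markers rose and 4 fell, and their sum was 1160 to 1179 CPM in isograft and 1183 to 1250 CPM in allograft libraries. With total counts 7 of the 12 fell, Rrm1 among them, against 40.8% of all tested genes.

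Of the genes that supply precursors, 5 of 13 tested rose and 2 fell, with a median of 0.16. Slc1a5, a glutamine transporter, rose from 37.6 ± 3.31 to 147.6 ± 6.83 CPM (1.97 ± 0.08), Asns, asparagine synthetase, which uses aspartate and glutamine, from 4.77 ± 0.530 to 19.4 ± 0.490 CPM (2.03 ± 0.12), and Prps1, which makes the phosphoribosyl donor used by UMPS, from 45.0 ± 1.84 to 82.6 ± 7.07 CPM (0.88 ± 0.08). Got1, an aspartate aminotransferase, rose by 0.69 ± 0.08. Glul, glutamine synthetase, fell (-0.55 ± 0.11). Prps2 and Prpsap1 did not pass, except with total counts, where both fell along with Slc25a12, an aspartate-glutamate carrier gene. Cps1, the liver enzyme that makes carbamoyl phosphate for urea, was at 0 in every library.

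The list around coenzyme Q, the electron acceptor of DHODH, also held some of the other mitochondrial enzymes that reduce it. It did not hold the subunits of the respiratory NADH dehydrogenase (complex I), which reduces it too. Of its 19 genes 6 rose and 6 fell, near the shares over all tested genes (28.7% and 29.1%). The median was 0.14. Gpd2, a glycerol phosphate dehydrogenase, rose (0.68 ± 0.08), as did the coenzyme Q synthesis genes Pdss1 (1.34 ± 0.17) and Coq2 (0.65 ± 0.09). Coq8a, a kinase-like protein of that synthesis, fell from 36.9 ± 3.90 to 22.9 ± 0.639 CPM (-0.69 ± 0.09). With total counts 5 rose and 7 fell, against 19.9% and 40.8% of all tested genes, and the median was -0.08.

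Of 9 tested genes for enzymes that spend UTP or CTP, 3 rose and 4 fell, against 28.7% and 29.1% of all tested genes. Their median was -0.11. Trnt1, which adds the CCA end to transfer RNAs from CTP and ATP, rose from 77.3 ± 5.58 to 152.7 ± 7.60 CPM (0.98 ± 0.08), and Uap1, which makes UDP-N-acetylglucosamine from UTP, by 0.72 ± 0.08. Cds2, which activates phosphatidic acid with CTP, fell from 129.3 ± 4.45 to 68.1 ± 4.03 CPM (-0.92 ± 0.07). Pcyt2, of phosphatidylethanolamine synthesis, rose (0.32 ± 0.07) except with total counts, while Ugp2, of UDP-glucose synthesis, passed downward only with total counts. Pcyt1a, of phosphatidylcholine synthesis, fell (-0.29 ± 0.10).

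Breakdown genes were few: 5 of 9 were tested, of which 1 rose and 1 fell, with a median of 0.33. Nt5c, a nucleotidase of deoxynucleotides, fell from 105.2 ± 7.40 to 69.3 ± 3.19 CPM (-0.60 ± 0.08), and Nt5c3, a pyrimidine nucleotidase, rose (0.36 ± 0.10), a call lost with total counts (0.14, edgeR adjusted p = 0.28). Tymp, thymidine phosphorylase, was at 0.379 ± 0.276 and 0.892 ± 0.485 CPM and did not pass (1.20 ± 0.57, adjusted p = 0.078), though leaving out replicate 2 of the isograft group (edgeR adjusted p = 0.031) or of the allograft group (0.041) made it pass. It shares 42.0% of its exon bases with Sco2 and 26.3% with Ncaph2, so its level is uncertain.

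Of 6 genes known to act on Cad, 3 rose and 1 fell, with a median of 0.38. Myc, a transcription factor for which Cad is a textbook target, was at 44.8 ± 2.87 and 411 ± 53.4 CPM (3.20 ± 0.09), and its partner Max rose by 0.70 ± 0.12. Rps6kb1, the S6 kinase that phosphorylates CAD, rose (0.68 ± 0.08), and Mapk3, a MAP kinase, fell from 15.4 ± 1.22 to 8.34 ± 0.631 CPM (-0.88 ± 0.12). Their part in the levels of Cad was not tested.

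**Figure D5:**
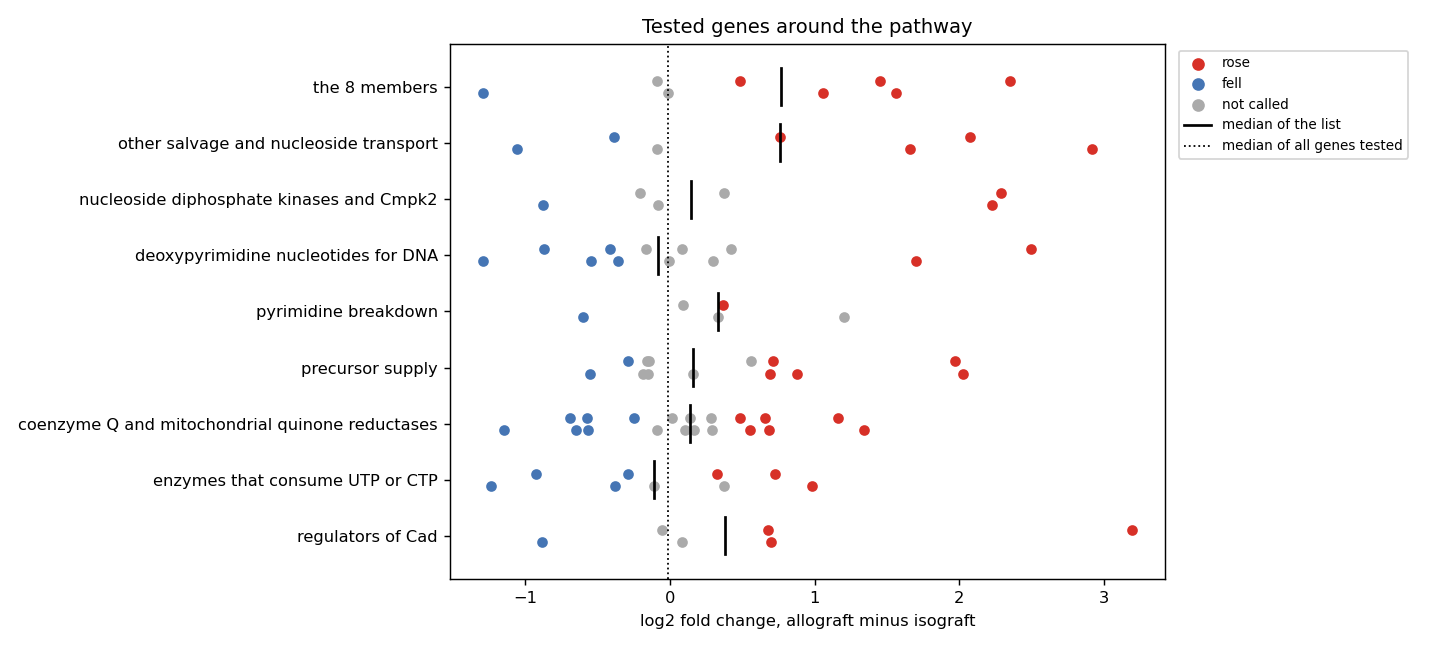
Log2 fold change (allograft minus isograft) of every tested gene in the 8 pyrimidine genes and in each list around them, coloured by whether the gene rose, fell or was not called, with the median of each list (black tick) and of all tested genes (dotted line). Each list shown has genes on both sides of 0, and the medians run from -0.11 to 0.77.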

How the data were processed

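Per the file headers, the authors counted read pairs over exons per Ensembl gene (release 104, GRCm39) with featureCounts 1.6.0 on HISAT alignments, and deposited whole-number counts with no normalization. The sources used here give no aligner version or settings. The headers record no strand or multi-mapping option, so at that tool's defaults multi-mapped reads and reads over 2 genes are left out. GRCm38 and mm10 are named in the submitters' processing notes, but the GRCm39 and GRCm38 intervals of all 8 genes do not overlap, and the lowest count among them was 184. Symbols matched for 93.99% of genes.

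The counts were filtered (filterByExpr), TMM-scaled and tested with edgeR 4.0.16 (quasi-likelihood, robust, Benjamini-Hochberg over 14926 genes, threshold 0.05) in R 4.3.3, checked on simulated counts. The SE is the log2 fold change over the square root of F. Alternatives used DESeq2 1.42.0 and limma 3.58.1. Members and lists were chosen with earlier results of these data known. Named genes are the 8 members, per list the 3 smallest p (plus the first of the other direction where all 3 agreed), and the 3 nearest to Cad. Other list genes in the text were chosen after their values were seen. Within groups the chi-square per degree of freedom between libraries was 9.58 to 20.0, above sampling noise. Figures used matplotlib 3.10.9. Some genes of the lists are not reported here.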

Additional observations from a re-analysis of the deposited data

How the results depend on the processing

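Over 15 alternatives per gene (RLE scaling, total counts, DESeq2, limma-voom, a non-robust fit, no low-count filter, a replicate block, at least 5 CPM in 3 libraries, no immunoglobulin, hemoglobin and mitochondrial genes, and each of 6 libraries left out), 115 of 120 values of the 8 genes kept their direction and side of the threshold. With total counts 3 of the genes fell and 4 rose: Dhodh was lost (0.26, adjusted p = 0.13), Uck1 (-0.31) and Cmpk1 (-0.24) passed downward, and of all genes 2973 rose and 6093 fell, against 4283 and 4349. The estimate of Cmpk1, not called, was -0.10 to 0.05 with 1 library left out, turning positive without isograft replicate 3 (0.053) or allograft replicate 2 (0.0023). Of 433 values of 29 other named genes 430 kept theirs, the exceptions being Nt5c3 and Tymp as given above. The filter of at least 5 CPM did not test Nme2 and Tymp. Same-numbered libraries did not deviate together (correlations -0.063 to 0.0029). Whether the numbers mark pairs cannot be told from this, since pairs need not leave a shared deviation. With the replicate block 5 of the 8 genes rose and 1 fell, and 4064 and 4152 of all genes, and the paralog ratio differences were 3.65 and 1.15 (exact p = 0.25 each, the smallest possible). With 1 library left out they were 3.59 to 3.78 and 1.12 to 1.19. Low counts limit Dhodh most among the 8 genes.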
